A study of Mus musculus with 12 samples.

Results

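The MYC and MAX network was followed as 10 listed genes, of which 9 were measured by 23 probe sets among 17097 genes on 12 arrays. The members, like the gene lists below, were chosen by name with earlier results of these data known. Each gene is given by its brightest probe set (highest mean of the 12 arrays). The genes of the 3 MYC proteins are Myc, Mycn and Mycl, those of their antagonists are Mxi1, Mxd1, Mxd3, Mxd4 and Mnt, and Mlx encodes a partner related to MAX. Max itself was not analysed here. RNA came from primary mouse embryonic fibroblasts (MEFs; e14.5, C57Bl/6 x 129Sv F1, passage 4), with 3 numbered MEF lines per genotype. The 4 groups of 3 arrays were CBP/p300 double-knockout (dKO) cells with 100 µM dipyridyl (DP) for 3 h, dKO cells with ethanol vehicle for 3 h, wild-type cells with DP and wild-type cells with ethanol. The dKO cells carried homozygous conditional alleles of both coactivators, CBP and p300, which are acetyltransferases. Cells of all 4 groups, wild type included, received adenovirus carrying Cre recombinase, were cultured in 3% oxygen, and spent 24 h in normoxia before treatment. DP binds iron, without which the enzymes that send hypoxia-inducible factor (HIF) to destruction cannot act. The labels do not say that the numbered lines came from separate embryos, so p-values measure the spread between arrays of these lines within the groups. Except where the MEF line is used as a block, the DP and ethanol arrays of a line count as independent.

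MYC proteins bind the DNA sequence CACGTG, called an E-box, as dimers with MAX and activate genes of ribosome production, metabolism and cell division. MXI1, the MXD proteins and MNT compete for MAX and for the same sequence, and recruit the SIN3 and histone deacetylase corepressor complex. MLX pairs with the glucose-sensing factors MONDOA and ChREBP, and also with MXD1, MXD4 and MNT. In fibroblasts MYC is induced by serum growth factors, and Mxi1 is a known target of HIF.

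Start-site sequences are shown for 5 members whose windows hold motifs known to be bound by HIF or by the network's own dimers; the windows of Mycn and Mxd3 hold none of those searched. RefSeq (GRCm38.p6) gave 11 windows, from 250 bases before to 50 bases after a start, for 9 of the 10 members. They were searched on both strands for the E-box CACGTG and for ACGTG and GCGTG, the core forms of the sequence bound by HIF. An E-box contains ACGTG on both strands. Mxi1, the member with the largest DP response, has 3 windows. The window of its first start holds none of these motifs, and the other 2 hold 1 ACGTG each. Mxd1, the member with the largest genotype difference in ethanol (under DP it was Myc), has 1 window with GCGTG on both strands. Capitals mark the motif matches.
Mxi1, start 2 (chr19:53329163-53329462, plus strand): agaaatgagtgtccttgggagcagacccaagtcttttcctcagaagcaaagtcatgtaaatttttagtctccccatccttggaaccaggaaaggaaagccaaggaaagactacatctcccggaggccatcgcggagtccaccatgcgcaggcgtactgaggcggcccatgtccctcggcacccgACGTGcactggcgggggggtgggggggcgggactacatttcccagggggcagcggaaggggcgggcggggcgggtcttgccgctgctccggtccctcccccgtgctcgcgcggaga
Mxi1, start 3 (chr19:53329445-53329744, plus strand): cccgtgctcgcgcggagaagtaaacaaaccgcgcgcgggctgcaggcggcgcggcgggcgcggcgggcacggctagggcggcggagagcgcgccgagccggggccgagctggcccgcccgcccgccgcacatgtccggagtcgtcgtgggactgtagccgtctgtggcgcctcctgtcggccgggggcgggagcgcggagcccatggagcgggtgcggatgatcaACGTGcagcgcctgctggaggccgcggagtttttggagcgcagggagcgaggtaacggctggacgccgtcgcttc
Mxd1 (chr6:86669110-86669409, minus strand): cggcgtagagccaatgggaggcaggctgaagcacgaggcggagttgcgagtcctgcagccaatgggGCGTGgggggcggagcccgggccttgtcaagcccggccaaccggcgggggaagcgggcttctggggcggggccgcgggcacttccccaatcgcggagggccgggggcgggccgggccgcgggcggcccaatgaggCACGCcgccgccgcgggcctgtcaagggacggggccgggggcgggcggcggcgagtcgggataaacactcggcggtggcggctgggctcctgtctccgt

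Of the 11 windows, 4 hold the full E-box, in Max, Mxd4, Mnt and Mlx. ACGTG is in 6 of the 11, those with an E-box included, and GCGTG in 4, in Mycl, Max, Mxd1 and Mnt. The window of Mycl holds 2 GCGTG matches and is not shown. Among all 32851 windows of the same length, 7.15% hold CACGTG, 19.6% hold ACGTG and 32.4% hold GCGTG on either strand. A match is a description of letters, and binding was not measured. Stretches of 30 bases around the E-box follow, for the 3 measured members that hold it.
Mlx (chr11:101087238-101087267, plus strand): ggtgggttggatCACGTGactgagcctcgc
Mnt (chr11:74830789-74830818, plus strand): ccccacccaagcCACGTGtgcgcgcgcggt
Mxd4 (chr5:34187912-34187941, minus strand): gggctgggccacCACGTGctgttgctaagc

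Values are log2 probe set levels, changes are differences of log2 values, ± after a change is its standard error (n = 3 arrays in each group), and p-values adjusted over all 17097 genes come from limma, a gene being called under 0.05. Levels of different genes cannot be compared, since probe sets differ in brightness. Crebbp, which encodes CBP, lay between 7.02 and 7.69 on dKO arrays and between 8.07 and 8.54 on wild-type arrays, and the sources used here do not place its probe set relative to the deletion. Of 11 fibroblast markers, 10 were above the blank controls on all arrays, and 10 were lower in dKO under either treatment, with a median difference of -1.68 in ethanol. Of 5 epithelial markers 3 were lower in dKO under DP and 4 in ethanol, with list means of 4.36 to 4.98 on dKO and 5.42 to 5.94 on wild-type arrays, and of 4 neural markers 2 and 1 were lower, with list means of 3.54 to 3.99 on dKO and 4.72 to 4.94 on wild-type arrays. Of 6 macrophage markers 2 were higher and 2 lower in dKO under DP, and 2 higher and 1 lower in ethanol, with list means of 4.27 to 4.53 in dKO, against 3.92 to 4.32 in wild type. Cd68 measured 6.30 to 7.23 in dKO, against 4.66 to 5.88 in wild type, and Cd14 5.65 to 6.44 against 4.76 to 5.56, while Ptprc and Itgam were at or under the blank level on every array. Of 5 endothelial markers 1 was lower in dKO under DP and none in ethanol, with Kdr at 3.25 to 3.71 in dKO, against 3.72 to 4.32 in wild type, and Tek at or under the blank level on every array. Of 5 muscle markers 1 was lower in dKO in each treatment, with Des at 6.27 to 7.54 in dKO, against 7.91 to 8.61 in wild type. Myod1 and the neural marker Sox2 were at or under the blank level on every array. Among all genes 16.9% were lower and 18.5% higher in dKO under DP, and 14.1% lower and 19.5% higher in ethanol. The part of the markers in the genotype differences was not tested. Xist, a female-specific RNA, measured between 3.94 and 5.32 on dKO arrays and between 10.28 and 10.75 on wild-type arrays, and the Y-linked Eif2s3y measured 7.08 to 8.93 in dKO, against 2.49 to 3.29 in wild type, so that embryo sex and genotype cannot be told apart. The difference between 3' and 5' beta-actin probe sets, a sign of RNA quality, lay between 0.48 and 0.60 in dKO with DP, 0.40 and 0.45 in dKO with ethanol, 0.28 and 0.38 in wild type with DP and 0.23 and 0.25 in wild type with ethanol, and its part in the results below was not tested. The ethanol arrays of dKO line 1 and wild-type line 5 correlated least with their own groups (mean r = 0.989 and 0.990), and results that change without them are given so. In these bulk samples fewer cells of a type and less RNA per cell cannot be told apart.

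Myc was lower in dKO cells, and lower after DP in wild-type cells. It measured 6.51, 6.36 and 6.49 in dKO lines 1, 5 and 6 with DP and 7.25, 6.82 and 6.72 in the same lines with ethanol. In wild-type lines 3, 4 and 5 it measured 8.23, 8.18 and 7.91 with DP and 8.87, 8.83 and 8.85 with ethanol. The 4 groups did not overlap, and their means fell in the order wild-type ethanol, wild-type DP, dKO ethanol and dKO DP. In ethanol Myc was 3.79-fold lower in dKO than in wild type (-1.92 ± 0.13, adjusted p = 4.22e-07) and 3.15-fold lower under DP (-1.65 ± 0.13, adjusted p = 1.23e-06). DP lowered it 1.67-fold in wild-type cells (-0.74 ± 0.13, adjusted p = 0.00489). In dKO cells the change of -0.48 ± 0.13 had the same sign in all 3 lines and did not pass (adjusted p = 0.132). The DP effects of the genotypes differed by 0.27, with a 95% interval from -0.14 to 0.68 that includes 0 (adjusted p = 1). A single probe set measured Myc, so no second one could be set beside it.

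**Figure D1:**
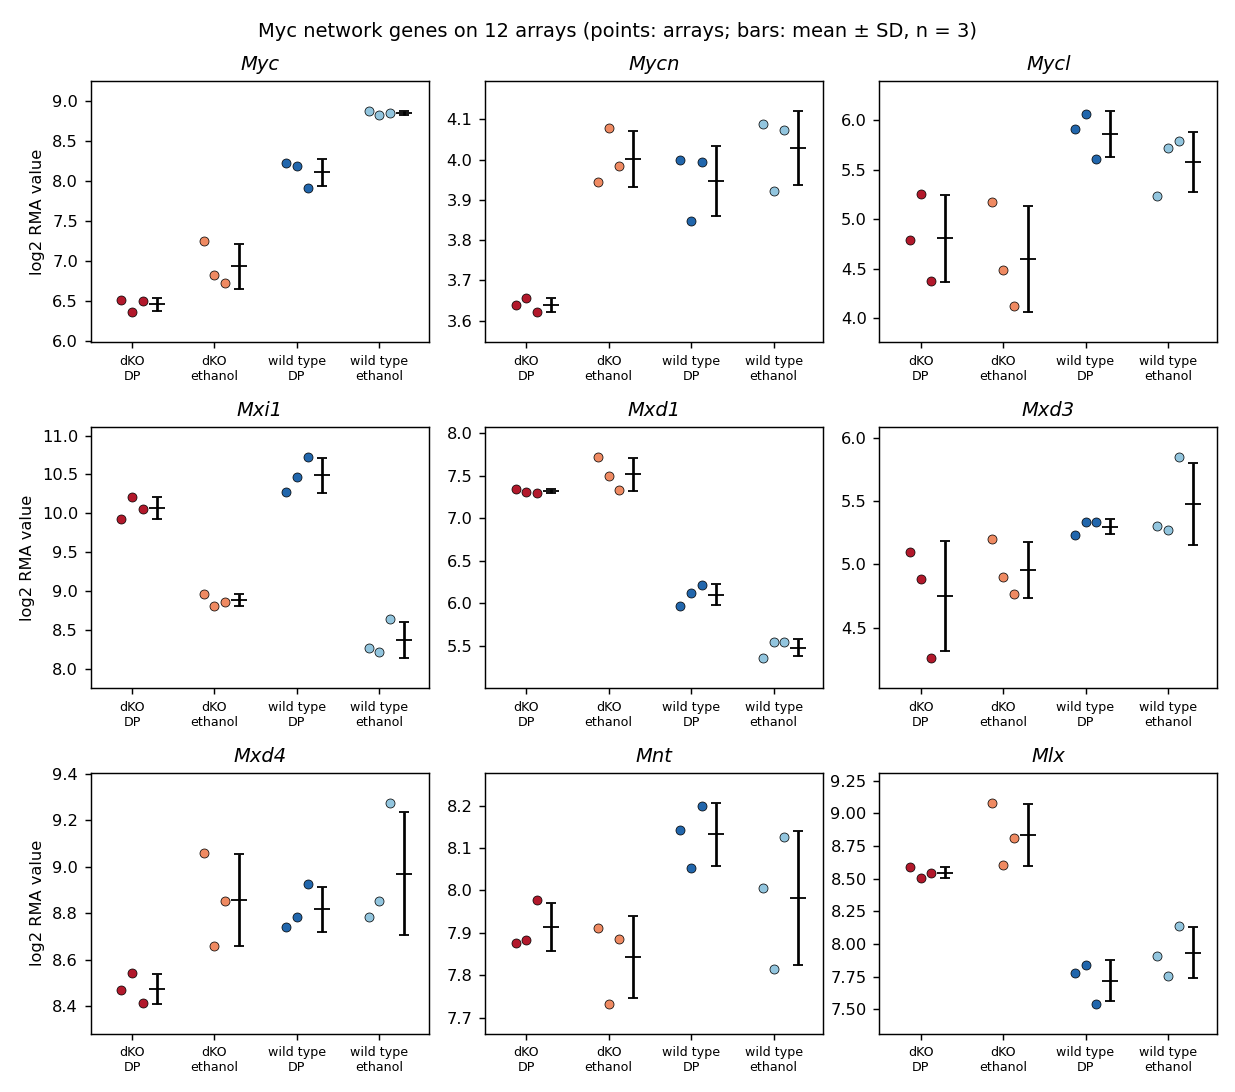
Log2 probe set levels of the 9 measured members on each of 12 arrays, 1 panel per gene with its own vertical scale, in dKO and wild-type cells with DP or ethanol. Points are arrays (lines in numerical order) and black bars the mean ± SD (n = 3); Myc falls into 4 separate groups, Mxi1 is high in both DP groups, and Mxd1 and Mlx are high in both dKO groups.

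The other MYC family genes were dim. Mycl, first known as an amplified gene of lung cancer, measured 4.79, 5.25 and 4.38 in dKO lines 1, 5 and 6 with DP, against 5.91, 6.06 and 5.60 in wild-type lines 3, 4 and 5 with DP. With ethanol it measured 5.17, 4.49 and 4.13 in dKO lines, against 5.23, 5.72 and 5.79 in wild-type lines. Its dKO values were below all wild-type values within each treatment, and dKO line 1 with ethanol came closest. Mycl was lower in dKO by -1.05 ± 0.27 under DP (adjusted p = 0.00805) and by -0.98 ± 0.27 in ethanol (adjusted p = 0.0121). The ethanol call was lost when leaving out the dKO ethanol array of line 6 (-0.75, adjusted p = 0.0619). Its 2 other probe sets lay near the blank level and showed no called difference. DP changed Mycl by 0.21 ± 0.27 in dKO cells and by 0.28 ± 0.27 in wild-type cells, and neither passed.

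Mycn, the MYC gene of neural and embryonic progenitors, lay between 3.62 and 4.09 on all arrays, close to the 95th percentile of the blank controls (3.08 to 3.92 over the arrays). Under DP it was lower in dKO (3.62 to 3.66) than in wild-type cells (3.85 to 4.00), at -0.31 ± 0.09 (adjusted p = 0.0152). The blank level was lower on the same dKO arrays, at 3.08 to 3.30 against 3.56 to 3.84 on the wild-type arrays, and its part in this difference was not tested. The call was lost with median centring (adjusted p = 0.0707) and when the line 3 or line 5 wild-type DP array was left out (adjusted p = 0.0584 and 0.0556). In ethanol Mycn differed by -0.03 ± 0.09 between dKO and wild-type cells. DP changed it by -0.36 ± 0.09 in dKO cells (adjusted p = 0.0688) and by -0.08 ± 0.09 in wild-type cells (adjusted p = 0.746).

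Mxi1, an antagonist gene, rose with DP in both genotypes. In dKO lines 1, 5 and 6 it measured 9.93, 10.21 and 10.06 with DP and 8.97, 8.81 and 8.86 with ethanol. In wild-type lines 3, 4 and 5 it measured 10.28, 10.47 and 10.72 with DP and 8.27, 8.22 and 8.64 with ethanol. DP and ethanol arrays were far apart in each line. The rise was 2.27-fold in dKO cells (1.19 ± 0.14, adjusted p = 0.000385) and 4.34-fold in wild-type cells (2.12 ± 0.14, adjusted p = 7.36e-07). The second probe set of Mxi1 gave rises of 0.98 ± 0.14 in dKO and 1.87 ± 0.14 in wild-type cells (adjusted p = 0.00177 and 2.34e-06 over all probe sets).

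The Mxi1 response was smaller in every dKO line than in any wild-type line, at 0.96, 1.40 and 1.19 in dKO lines 1, 5 and 6, against 2.01, 2.25 and 2.09 in wild-type lines 3, 4 and 5. The difference between the responses was -0.93 ± 0.20 (95% interval -1.36 to -0.50) and narrowly missed the threshold (adjusted p = 0.0696). It passed with the MEF line as a block (adjusted p = 0.0449) and without the ethanol arrays of dKO line 1 and wild-type line 5 (-1.02, adjusted p = 0.0343). Over all 19 alternatives its adjusted p lay between 0.0181 and 0.205, and it passed in 5. The ethanol level of Mxi1 was higher in dKO than in wild type (0.51 ± 0.14, adjusted p = 0.0124), while its DP level was lower (-0.42 ± 0.14, adjusted p = 0.0309). The second probe set did not show the ethanol difference (0.01 ± 0.14, adjusted p = 0.967) and showed a larger difference under DP (-0.88 ± 0.14, adjusted p = 0.000276). The DP difference of the first probe set was lost without 1 of 4 arrays, the wild-type DP arrays of lines 4 and 5 (adjusted p = 0.0675 and 0.139) and the dKO DP arrays of lines 1 and 6 (adjusted p = 0.113 and 0.0762), and with median centring (adjusted p = 0.0647). The ethanol difference was lost without the wild-type ethanol array of line 4 (0.43, adjusted p = 0.0551) and with the mean of both probe sets (0.26, adjusted p = 0.111).

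**Figure D2:**
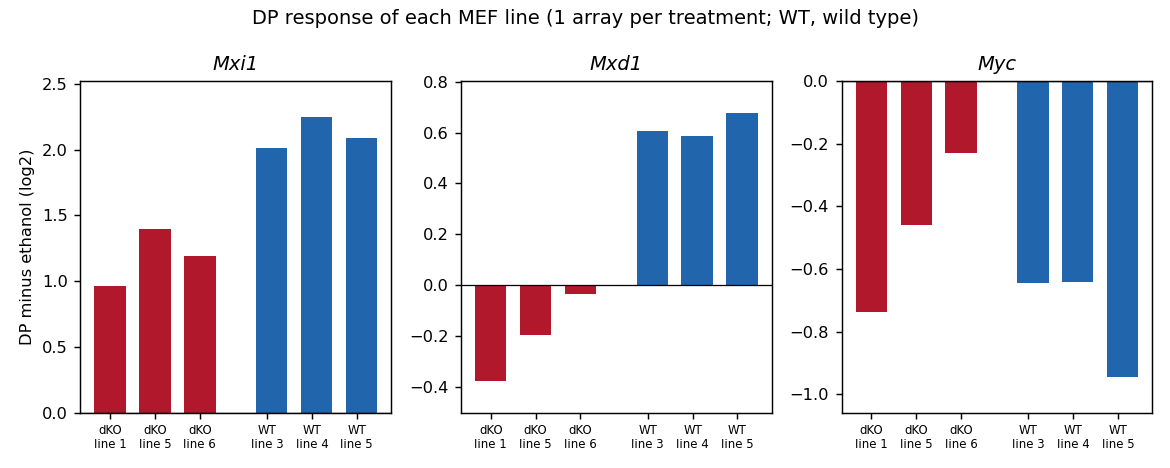
DP response (log2 level with DP minus log2 level with ethanol) of Mxi1, Mxd1 and Myc in dKO lines 1, 5 and 6 (red) and wild-type lines 3, 4 and 5 (blue), 1 bar per line. Mxi1 responded by 0.96 to 1.40 in dKO and by 2.01 to 2.25 in wild-type lines, Mxd1 lay below 0 in each dKO line and above 0 in each wild-type line, and Myc was below 0 in all 6.

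Mxd1, which encodes MAD1, an antagonist that accumulates as many cell types differentiate, was high in dKO cells. It measured 7.35, 7.31 and 7.30 in dKO lines 1, 5 and 6 with DP, against 5.97, 6.13 and 6.22 in wild-type lines 3, 4 and 5 with DP. With ethanol it measured 7.72, 7.50 and 7.34 in dKO lines, against 5.36, 5.54 and 5.54 in wild-type lines. Every dKO value lay above every wild-type value. Mxd1 was 2.32-fold higher in dKO than in wild-type cells under DP (1.21 ± 0.11, adjusted p = 3.17e-06) and 4.11-fold higher in ethanol (2.04 ± 0.11, adjusted p = 6.84e-08). A second probe set gave 1.02 ± 0.15 and 1.54 ± 0.15 (adjusted p = 0.000225 and 8.97e-06 over all probe sets), and the remaining dim one, at 3.79 to 4.16 on all arrays, showed no called difference.

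The DP responses of Mxd1 differed between the genotypes. In dKO cells it changed by -0.20 ± 0.11 (adjusted p = 0.419), and in wild-type cells it rose 1.54-fold (0.62 ± 0.11, adjusted p = 0.00472). With the mean of its 3 probe sets the wild-type rise was 0.31 and did not pass (adjusted p = 0.134). By line the responses were -0.38, -0.20 and -0.03 in dKO lines 1, 5 and 6, against 0.61, 0.59 and 0.68 in wild-type lines 3, 4 and 5. The difference of -0.83 ± 0.16 passed (adjusted p = 0.037), a call made for 0.562% of all genes (0.0468% positive and 0.515% negative), and Mxd1 was the one member called. It stood close to the threshold, with an adjusted p between 0.0275 and 0.449 over 19 alternatives and a call in 6, and it was lost with the MEF line as a block (adjusted p = 0.051). Leaving out 1 array ended the call in 9 of 12 cases, these being the wild-type ethanol arrays of lines 3 and 4, the dKO ethanol arrays of lines 1 and 5, the wild-type DP arrays of lines 4 and 5 and all 3 dKO DP arrays. The second probe set gave a difference of -0.51 ± 0.22 that did not pass (adjusted p = 0.782), and a wild-type rise of 0.36 ± 0.15 that did not pass either (adjusted p = 0.33).

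Mlx, which encodes the partner related to MAX, was the other member higher in dKO cells in both treatments. It measured 8.59, 8.51 and 8.54 in dKO lines 1, 5 and 6 with DP, against 7.78, 7.84 and 7.54 in wild-type lines 3, 4 and 5 with DP. With ethanol it measured 9.08, 8.61 and 8.81 in dKO lines, against 7.91, 7.75 and 8.14 in wild-type lines. The genotypes did not overlap in either treatment. The difference was 1.77-fold under DP (0.83 ± 0.14, adjusted p = 0.000365) and 1.87-fold in ethanol (0.90 ± 0.14, adjusted p = 0.000191). The second probe set gave 0.94 ± 0.13 and 0.78 ± 0.13. DP changed Mlx by -0.29 ± 0.14 in dKO and by -0.21 ± 0.14 in wild-type cells, and neither passed.

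The remaining antagonist genes, Mxd3, Mxd4 and Mnt, passed in no comparison by their brightest probe sets, although all 3 were lower in dKO under DP with cyclic loess (adjusted p = 0.0352, 0.0103 and 0.00547). In ethanol Mxd3 and Mnt also passed as lower in dKO with cyclic loess (adjusted p = 0.0309 and 0.0143). With the mean of probe sets these 2 passed in ethanol (adjusted p = 0.0262 and 0.00165) and under DP (adjusted p = 0.0176 and 0.00768). Mxd3, whose product is made mainly around S phase of the cell cycle, lay between 4.27 and 5.20 in dKO and between 5.23 and 5.85 in wild-type cells. Its differences of -0.55 ± 0.21 under DP and -0.52 ± 0.21 in ethanol had adjusted p-values of 0.0562 and 0.0735, and the DP difference passed without the ethanol arrays of dKO line 1 and wild-type line 5 (adjusted p = 0.0227) and by 1 of 2 other probe sets (-0.46 ± 0.15, adjusted p = 0.0305). Mxd4, an antagonist linked to differentiation, lay between 8.41 and 8.54 in dKO cells with DP, against 8.74 and 8.93 in wild-type cells with DP. That difference of -0.34 ± 0.14 missed the threshold (adjusted p = 0.0718), and it too passed without the deviating arrays (adjusted p = 0.00663). Mnt, the antagonist present in most growing and resting cells, kept within 7.73 and 8.20 on all 12 arrays. Its largest change was -0.22 ± 0.10, between dKO and wild-type cells under DP (adjusted p = 0.112). A dim second probe set of Mnt, near the blank level, was lower in dKO (-0.36 ± 0.12 under DP and -0.59 ± 0.12 in ethanol, adjusted p = 0.0354 and 0.00194).

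Counted over the network, more members differed by genotype than by DP, as was so for all genes on the arrays. With DP, 1 of 9 measured members rose and none fell in dKO cells, where 1.5% of all genes were called (1.01% higher and 0.491% lower). In wild-type cells 2 rose and 1 fell, where 4.73% were called (3.05% higher and 1.67% lower). The member called in dKO cells was Mxi1, and those in wild-type cells were Mxi1, Mxd1 and Myc. In dKO against wild-type cells under DP, 2 members were higher and 4 lower, with 35.4% of all genes called (18.5% higher and 16.9% lower). In ethanol, 3 were higher and 2 lower, with 33.6% called (19.5% higher and 14.1% lower). The count under DP moved with the processing: it was 9 of 9 with cyclic loess, where Mxd3, Mxd4 and Mnt were also lower in dKO, 8 with the mean of probe sets and 4 with median centring. The count in ethanol was 7, 6 and 6 under the same settings. Median changes of the members were -0.34 under DP and -0.11 in ethanol, against -0.01 for all genes in both.

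**Figure D3:**
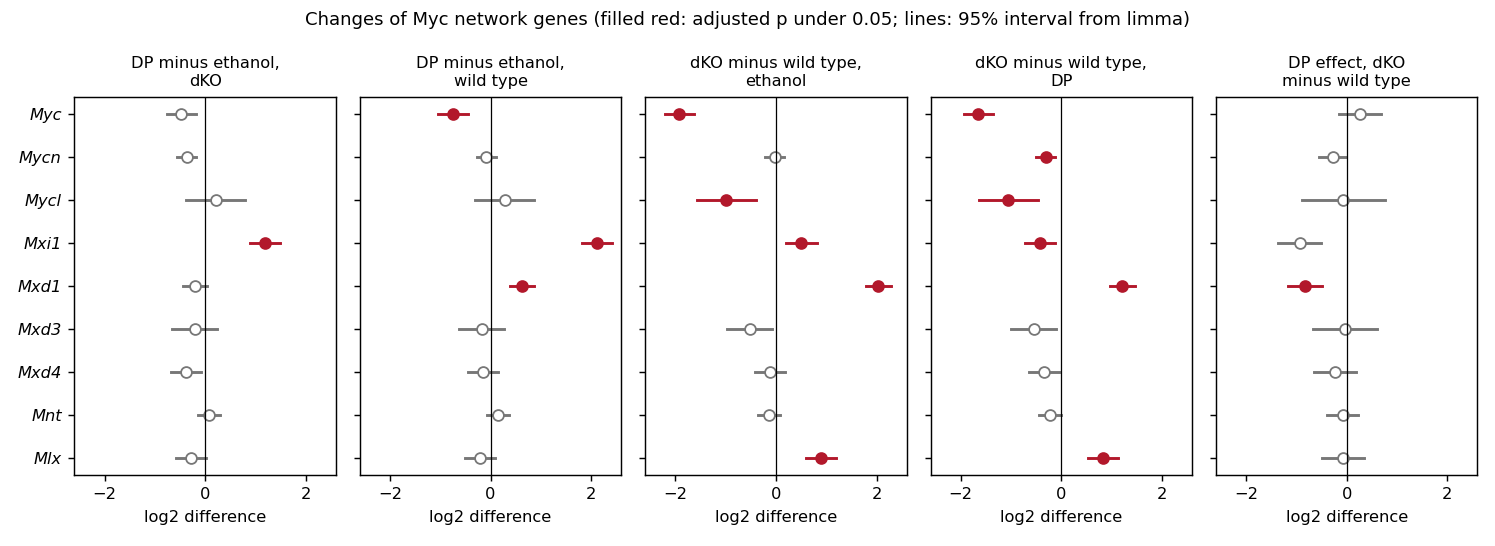
Log2 differences of the 9 measured members in 5 comparisons, with 95% intervals from limma (n = 3 arrays per group). Filled red points passed an adjusted p of 0.05 over 17097 genes; Myc and Mxd1 lie on opposite sides of 0 in both dKO against wild-type panels, and Mxi1 lies above 0 in both DP panels.

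The genes whose levels followed Myc most closely over the 12 arrays were Adamts4, a proteoglycan-cleaving protease gene (r = 0.995), Rbpms2 (r = 0.995), Slc20a1, a phosphate transporter gene (r = 0.994), Plaur, the urokinase receptor gene (r = 0.991), and Micall2 (r = 0.991). The arrays share lines and groups, so these values describe a common order of group means. Genes picked this way tend to share the changes of the gene they follow. In ethanol Slc20a1 differed by -1.44 ± 0.11 between dKO and wild type (adjusted p = 1.12e-06), and it changed with DP by -0.55 ± 0.11 in dKO and by -0.65 ± 0.11 in wild-type cells (adjusted p = 0.0302 and 0.00434). Those most like Mxi1 were Tmem74b (r = 0.992), Mgarp, encoding a mitochondrial protein (r = 0.990), Gpr146 (r = 0.988), Mideas (r = 0.984) and Bend5 (r = 0.983). Each of these 5 rose with DP in both genotypes, which their choice by likeness to Mxi1 on the same arrays largely fixed. Bend5, the one with the largest change, rose by 1.98 ± 0.16 in dKO and by 3.61 ± 0.16 in wild-type cells (adjusted p = 9.97e-06 and 1.98e-08).

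Among corepressor genes through which the antagonists act, one rose with DP in both genotypes, as Mxi1 did. Sap30, a subunit gene of the SIN3 complex, rose with DP by 1.16 ± 0.09 in dKO and by 2.11 ± 0.09 in wild-type cells (adjusted p = 9.82e-06 and 1.98e-08). The difference of its responses was -0.95 ± 0.13 (adjusted p = 0.00398). It was the only one of 9 measured corepressor genes called for either DP effect. The DP shares of all genes called were 1.5% in dKO and 4.73% in wild-type cells. In dKO against wild-type cells 4 of the 9 were higher and 1 lower under DP, where 35.4% of all genes were called, and 5 were higher and none lower in ethanol, where 33.6% were called. Sap18 and Hdac1, a further SIN3 subunit gene and a deacetylase gene, were higher in dKO by 0.62 ± 0.09 and 0.57 ± 0.09 under DP and by 0.73 ± 0.09 and 0.71 ± 0.09 in ethanol. The list's median difference was 0.19 under DP and 0.27 in ethanol.

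Genes that MYC is known to activate were more often lower than higher in dKO cells. Of 30 measured, 14 were lower and 1 higher in dKO than in wild type under DP, where 16.9% of all genes were lower and 18.5% higher. In ethanol 11 were lower and 1 higher, where 14.1% were lower and 19.5% higher. Their median differences were -0.22 and -0.29. In ethanol Shmt2, a mitochondrial enzyme gene of one-carbon metabolism, was lower by -1.22 ± 0.12 (adjusted p = 7.16e-06), Srm, the spermidine synthase gene, by -1.07 ± 0.14 (adjusted p = 7.55e-05) and Id2, an inhibitor of differentiation factors, by -0.99 ± 0.11 (adjusted p = 1.61e-05). The exception was Eif4e, the cap-binding translation factor gene, which was higher in dKO cells by 1.22 ± 0.11 (adjusted p = 2.47e-06). Its probe set was dim, at 5.22 to 5.80 in dKO and 4.07 to 4.58 in wild-type cells. Among the 30, Ncl lay at or under the blank level on every wild-type array, as Tert did on every wild-type DP array. The embryo sex, fibroblast marker and beta-actin values given above moved with genotype too.

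With DP, 1 of these 30 targets rose and none fell in dKO cells, where 1.5% of all genes were called. In wild-type cells 1 rose and 3 fell, where 3.05% of all genes rose and 1.67% fell. The falls were those of the ribosome assembly genes Ppan (-0.76 ± 0.13, adjusted p = 0.00399), Rrs1 (-0.69 ± 0.10, adjusted p = 0.00126) and Nop56 (-0.58 ± 0.11, adjusted p = 0.00689). Id2 was the gene that rose, by 0.64 ± 0.11 in dKO and by 1.71 ± 0.11 in wild-type cells, with a difference between responses of -1.07 ± 0.16 (adjusted p = 0.00551). Levels of Ppan overlapped between wild-type DP arrays (6.93 to 7.17) and dKO ethanol arrays (6.84 to 7.30).

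Most of the measured genes that MYC is known to repress were lower in dKO cells. Of 10 measured, 2 were higher and 7 lower in dKO than in wild type under DP, where 18.5% of all genes were higher and 16.9% lower. In ethanol 3 were higher and 6 lower, where 19.5% of all genes were higher and 14.1% lower. Gas1 was dim, at 3.25 to 3.53 in dKO with ethanol, against 3.75 to 4.17 in wild type with ethanol. On 2 of the 3 dKO ethanol arrays it lay at or under the blank level. The largest ethanol differences were those of Ndrg1, also a HIF target (-2.63 ± 0.14, adjusted p = 4.64e-08), Pdgfrb, a growth factor receptor gene that is also a fibroblast marker (-2.39 ± 0.24, adjusted p = 7.59e-06), the stress gene Gadd45a (-1.63 ± 0.15, adjusted p = 3.68e-06) and Ndrg2 (-1.42 ± 0.20, adjusted p = 9.36e-05). DP raised 2 of them in dKO cells, Ndrg1 and Ndrg2, where 1.01% of all genes rose. It raised 3 and lowered 1 in wild-type cells, where 3.05% of all genes rose and 1.67% fell. Cdkn1b, which encodes the cell-cycle inhibitor p27, rose in wild-type cells (1.26 ± 0.09, adjusted p = 2.33e-06), and its response differed between dKO and wild-type cells by -0.94 ± 0.13 (adjusted p = 0.00446).

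**Figure D4:**
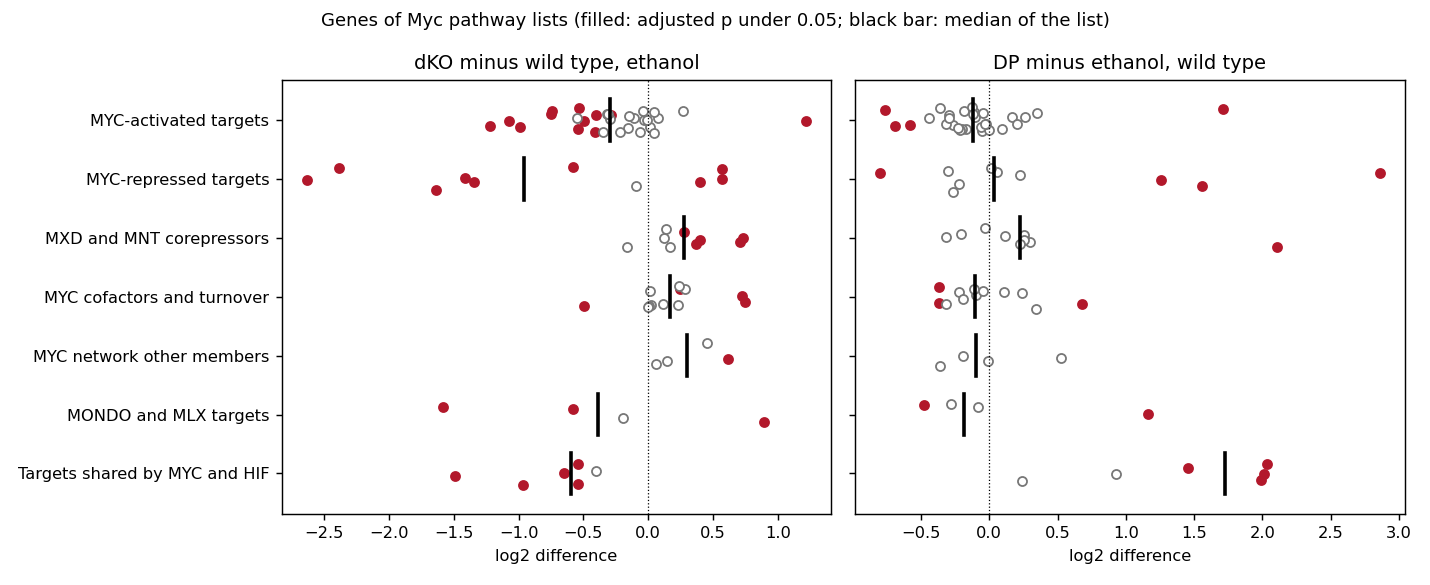
Log2 differences of the measured genes on 7 lists of the MYC pathway, dKO minus wild type in ethanol (left) and DP minus ethanol in wild type (right). Each point is a gene, filled where it passed an adjusted p of 0.05, and black bars are list medians; MYC-activated targets have a median of -0.29 on the left and -0.12 on the right.

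Among genes that control MYC itself, Usp28, whose product removes ubiquitin from MYC and stabilises it, measured between 6.65 and 6.78 in dKO with DP and between 6.69 and 6.72 in dKO with ethanol. In wild-type cells it measured between 6.63 and 6.69 with DP and between 5.76 and 6.11 with ethanol, so that the wild-type ethanol group stood alone. It rose with DP in wild-type cells (0.68 ± 0.10, adjusted p = 0.00111), and its genotype difference in ethanol was 0.72 ± 0.10 (adjusted p = 9.79e-05). The responses differed by -0.68 ± 0.14, short of the threshold (adjusted p = 0.0625). Of 12 measured cofactor and turnover genes, DP changed none in dKO cells by limma's adjusted p, where 1.5% of all genes were called. The largest change there was 0.40 ± 0.13 for Ruvbl2 (adjusted p = 0.183). In wild-type cells DP raised 1 and lowered 2, where 3.05% of all genes rose and 1.67% fell. The lowered ones were the elongation kinase gene Cdk9 (-0.37 ± 0.09, adjusted p = 0.0385) and the histone methylation cofactor gene Wdr5 (-0.36 ± 0.09, adjusted p = 0.0409). In dKO against wild-type cells 2 of the 12 were higher and 1 lower under DP. In ethanol 3 were higher and 1 lower, shares near or below the 35.4% and 33.6% of all genes called. Ruvbl2, a chromatin helicase gene, was the lower one (-0.44 ± 0.13 under DP and -0.50 ± 0.13 in ethanol).

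Mlxip, which encodes MONDOA, the partner of MLX, was like Mlx higher in dKO than in wild-type cells by 0.73 ± 0.12 under DP (adjusted p = 0.000442) and by 0.61 ± 0.12 in ethanol (adjusted p = 0.00167). It was the only called gene among 4 further network members, the others being Mlxipl, Mga and Zbtb17. The shares of all genes called between genotypes were 35.4% under DP and 33.6% in ethanol. Txnip, the best known target of MONDOA and MLX, lay between 8.67 and 8.88 in dKO with DP and between 10.06 and 10.23 in dKO with ethanol, against 8.69 to 8.86 in wild type with DP and 9.15 to 9.43 in wild type with ethanol. In ethanol Txnip was higher in dKO (0.89 ± 0.10, adjusted p = 2.26e-05), and the DP groups overlapped. DP lowered it in both genotypes, by -1.37 ± 0.10 in dKO and by -0.47 ± 0.10 in wild-type cells (adjusted p = 6.23e-06 and 0.0173), and the responses differed by -0.90 ± 0.15 (adjusted p = 0.0115). Arrdc4, the other well known target, was instead lower in dKO by -0.88 ± 0.13 under DP and by -0.58 ± 0.13 in ethanol (adjusted p = 0.000154 and 0.0034). Of the 4 genes on this list, 2 fell with DP in dKO cells, where 0.491% of all genes fell. In wild-type cells 1 rose and 1 fell, where 3.05% of all genes rose and 1.67% fell. Klf10 was the one that rose. With DP it lay between 5.25 and 5.83 in dKO, against 8.03 to 8.09 in wild type. With ethanol it lay between 5.20 and 5.54 in dKO, against 6.87 to 6.97 in wild type. Under DP 2 of the 4 were lower in dKO and none higher, where 16.9% and 18.5% of all genes were. In ethanol 2 were lower and 1 higher, where 14.1% and 19.5% were. The list's median differences were -0.51 and -0.39.

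Of 6 measured targets shared by MYC and HIF, 6 rose with DP in dKO and 4 in wild-type cells, with median changes of 2.05 and 1.72. For none of the 6 was the difference between the responses called, a call made for 0.562% of all genes. The shares of all genes that rose were 1.01% in dKO and 3.05% in wild-type cells. Hk2, the hexokinase gene, rose by 2.52 ± 0.09 in dKO and by 2.01 ± 0.09 in wild-type cells, and Pdk1, the pyruvate dehydrogenase kinase gene, by 2.03 ± 0.11 and 1.46 ± 0.11. Between genotypes, 3 of the 6 were lower in dKO under DP and 5 in ethanol, where 16.9% and 14.1% of all genes were lower. The 6 HIF target genes used to check the DP treatment all rose in both genotypes, with medians of 2.74 in dKO and 2.49 in wild-type cells. Vegfa and Slc2a1 are on both lists, so the lists are not separate. For 2 of the 6 check genes the response was called larger in dKO, as for 0.0468% of all genes. In ethanol all 6 were lower in dKO (median -0.96), and under DP 4 were lower and 1 higher.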

How the data were processed

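Expression was measured on 12 Affymetrix arrays. Per the submitters' processing notes, the authors made the deposited log2 values by RMA with Expression Console 1.1; RMA is a method of background correction, normalization across arrays and probe summary. Of 45141 probe sets, 28898 carried 1 gene symbol in the platform annotation and gave 17097 genes, symbols being updated through gene identifiers of the GRCm38.p6 table. The blank level is the 95th percentile of 23 nonspecific control probe sets per array. The median log2 value per array was 3.87 to 3.98; precision is limited by how few arrays there are.

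Limma 3.58.1 in R 4.3.3 (lmFit, eBayes) fitted 1 mean per group over all 12 arrays without a block, with Benjamini-Hochberg adjustment over all genes of each of 5 comparisons; other probe sets were tested in a fit of all 28898. The fit was tested on simulated data. Likeness is Pearson's r over 12 arrays. The text names the members in every comparison, the 5 genes most like Myc and Mxi1, and, of each list, up to 4 called genes or 2 of largest change; some of these are left out. Members and lists were chosen with earlier results of these data known. Promoter windows are RefSeq's.

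DP and ethanol arrays of a numbered MEF line are paired per the labels; correlations of their deviations from the group means were 0.04, 0.32 and 0.36 for dKO (line 1, line 5, line 6), and for wild type 0.42, 0.06 and 0.33 (line 3, line 4, line 5). Alternatives were that line as a block, an intensity trend, the mean of probe sets, median centring, cyclic loess, a filter removing the dimmest 40% of genes, only the arrays compared, leaving out each array, and leaving out both deviating arrays. Tables and figures used Python 3.11.15.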

Additional observations from a re-analysis of the deposited data

Results flagged for a closer look

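The DP response of Mxd1 differed between the genotypes by the test of the difference itself, at -0.83 log2 (dKO minus wild type, adjusted p = 0.037). The response was negative in 3 of 3 dKO lines and positive in 3 of 3 wild-type lines. The difference stood close to the threshold, with a call in 6 of 19 alternatives. In the limma fit of all probe sets the same probe set was not called (adjusted p rounding to 0.05).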

How the results depend on the processing

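In 20 alternatives the calls of Myc between genotypes, of Mlx and Mxd1 between genotypes and of Mxi1 for DP held. The difference of DP effects, with 1 member called, had 0 with median centring, 2 without the ethanol arrays of dKO line 1 and wild-type line 5, and 0 to 2 when single arrays were left out. Between genotypes, members called under DP numbered 4 to 9 over the alternatives against 6, and in ethanol 4 to 7 against 5. With MEF line as a block, pairing the treatments, the difference of Mxi1 passed (limma adjusted p = 0.0449) and that of Mxd1 did not (adjusted p = 0.051), and no member count changed under the block. Over all genes DP changed 256 in dKO cells, 142 with only the arrays compared and 153 to 326 without single arrays, and 808 in wild-type cells, 538 to 1010 without single arrays. The following changed sign, in results that had not passed unless said. With the mean of probe sets, the wild-type DP change was 0.0723 for Mycn and -0.0251 for Mnt, and the difference of DP effects 0.076 for Mnt and 0.043 for Mlx. Without both ethanol arrays, Mycn differed by 0.0252 between genotypes in ethanol, the difference for Mycl was 0.12, and the wild-type DP change of Mxd3 was 0.0088. With median centring the difference was 0.0207 for Mycl, 0.0578 for Mxd3, 0.0076 for Mnt and 0.0143 for Mlx, and with cyclic loess 0.0244 for Mxd3. By other probe sets, Mycn changed with DP by 0.14 in dKO and 0.37 in wild-type cells and differed by 0.0693 between genotypes in ethanol. Mycl changed with DP by -0.0733 and -0.10 in dKO and by -0.0266 and -0.0424 in wild-type cells. The dim probe set of Mxd1 reversed called results, at -0.0338 for DP in wild type, -0.0269 for genotype under DP and -0.0346 in ethanol, and 0.0077 for the difference. Wild-type DP changes were 0.0597 for Mxd3, 0.17 for Mxd4 and -0.20 for Mnt, the ethanol genotype difference of Mxd4 was 0.0672, and differences of DP effects were 0.0911 for Mxd3, 0.23 for Mnt and 0.16 for Mlx. Leaving out single arrays gave -0.0794 to 0.0044 for Mycn and -0.21 to 0.0386 for Mxd4 between genotypes in ethanol. It gave DP changes in dKO cells of -0.0245 to 0.50 for Mycl and -0.38 to 0.0361 for Mxd3, and in wild-type cells of -0.28 to 0.0088 for Mxd3. Differences of DP effects were -0.30 to 0.22 for Mycl, -0.22 to 0.21 for Mxd3, -0.15 to 0.0033 for Mnt and -0.19 to 0.0507 for Mlx. The causes were not tested. Mycn and the dim probe sets lay near the blank level, which limits what they can show.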
